A study of Homo sapiens with 14 samples.

Results

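At the annotated first base of first or single exons, 86 listed adenosines could be tested in CAOV3 cells. They averaged a methylation level of 32.7% with STM3675 and 34.9% with DMSO, and the test called none. In the same libraries the adenosines of the METTL3 motif averaged 11% with STM3675 and 45.4% with DMSO. The adenosines described are those that the deposited site table lists in the first exon of a gene, or in its single exon, within 10 nt of the upstream edge of that exon. They number 421 of the 407343 listed adenosines, and are called start sites below. Among them 202 (48%) are the first base of the exon and 219 lie 1 to 10 nt further in. That first base is the annotated edge, and transcript starts were not measured. The first exon holds 406 and a single exon 15, in 395 genes, of which 25 have 2 start sites. Position alone chose them among the listed adenosines, but a level in DMSO libraries, those of CAOV3 included, decided which adenosines were listed.

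The 14 libraries were made by GLORI from polyadenylated RNA of established human cancer cell lines, 2 per group. CAOV3 cells (ovarian carcinoma) were given 1 uM STM3675 for 24 h. The solvent DMSO was given for 24 h to CAOV3, to the ovarian lines COV644, EFO21 and SKOV3, to A549 (lung carcinoma) and to OE21 (oesophageal). The series is about inhibition of METTL3. Each line is a single culture model, and the labels do not say whether 2 libraries of a group came from separate cultures. The p-values thus rest only on the spread between libraries, which may be technical. For the tests of treatment and of lines that spread was 1 value common to all sites, so disagreement between a site's own replicates did not enter.

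Adenosine in messenger RNA can carry a methyl group on its N6. METTL3, with METTL14, methylates internal adenosines in the DRACH motif (D is A, G or T, R is A or G, H is A, C or T). PCIF1 acts on the nucleotide next to the cap, where an adenosine that already carries a ribose methyl group becomes m6Am, and FTO can remove that methyl group. GLORI deaminates unmethylated adenosine, which is then read as G, while N6-methylated adenosine is still read as A. A site's level is thus given as A reads per 100 A and G reads, and this readout does not separate m6A from m6Am. A level averages over all transcripts of a culture, so a share of molecules and a share of cells cannot be told apart.

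The 30 bases around the sites that the results turn on show what the first-base sites share. In each line the base before the listed adenosine and the adenosine itself are in capitals, on the strand of the gene, from RefSeq promoters of GRCh38.p14. The first 8 are, in the deposited annotation, first bases of their exon. By that annotation, the bases to the left of the capital A are DNA of the promoter and not of the transcript.
TUBB4B, chr9:137241272-137241301 (+): cggagcgtcggttgTAgcactctgcgcgcc
UCHL1, chr4:41256913-41256942 (+): ctgggcggctccgcTAgctgtttttcgtct
UBB, chr17:16381076-16381105 (+): ccgccagcccggagCAtttaggggcggttg
H2BC12, chr6:27146841-27146870 (-): tggtaccttgctccCAttacttcccgtttt
MRFAP1, chr4:6640670-6640699 (+): gacggccgggactcCAttttgttcgccgtt
ID1, chr20:31605274-31605303 (+): tggctccgcactctCAttccacgttcttaa
S100A6, chr1:153535977-153536006 (-): actgcgacacagccCAtcccctcgaccgct
DDX39B, chr6:31541989-31542018 (-): accggaagtgaaggCAgatttccctccttc
The last pair lie inside the exon, 2 and 7 nt from its first base, in the DRACH 5-mers AGACT and GGACT.
TRAPPC6B, chr14:39170317-39170346 (-): tagagctcccgtcaGActttagttcggccc
SCCPDH, chr1:246724401-246724430 (+): ctgggctcgctgtgGActcgtcatggcgac
At 6 of the 8 first-base sites a C precedes the A, and at TUBB4B and UCHL1 a T. RefSeq places the start of 6 of the 8 genes at the same base; the listed site of H2BC12 lies 3 nt inside its RefSeq start and that of UBB at -199 from it.

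The libraries held 14047302 to 28663588 reads at the listed sites. All listed sites have 20 or more reads and a level of 25% or more in at least 1 DMSO library; STM3675 levels played no part in the listing. The median level of sites outside DRACH covered in all 12 DMSO libraries, a gauge of incomplete conversion, was 4.27% in both COV644 and OE21 and at most 12.7% in the other 4 lines. As a check of the labelled cell types, reads at listed sites of squamous genes (TP63, KRT5, KRT14, SOX2) were highest in OE21, for example 66162 and 68430 at KRT5 against 2 to 1100 elsewhere. The epithelial genes had reads in every library: EPCAM 76 to 11441, KRT8 22 to 5972, KRT18 169 to 8168 and CDH1 118 to 16819. The ovarian marker MSLN had 238 to 25072 reads in the ovarian lines, 34 and 33 in A549 and 35 and 19 in OE21. The other ovarian markers and the lung marker did not separate the lines. PAX8 had 335 to 8098 reads in the ovarian lines, 342 and 407 in OE21 and 52 and 80 in A549. WT1 was highest in A549 (200 and 188, at most 33 elsewhere), and EMX2 had more than 6 reads in EFO21 alone (741 and 547). NKX2-1, a lung lineage factor, had 2 and 3 reads in A549, 369 and 300 in COV644 and 200 and 202 in OE21. Of the markers of fibroblasts and leukocytes, COL1A1 had 119 to 2809 reads, COL1A2 at most 164, and CD14 at most 1171, the highest in CAOV3. MUC16, SFTPB, SFTPC, NAPSA, PDGFRA and PTPRC have no listed site. The part of other cells in the results was not tested.

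Start sites piled up at the first base. It held 202 sites, against 17 at the next base and 13 to 42 at each of the positions 2 to 10 nt in. The first base of internal exons (1313 sites) and of last exons (163) also holds listed sites, but those follow the splice acceptor. C stood before the adenosine at 159 of the 202 first-base sites (78.7%) and T at 35, while C stood before 77 of the 219 sites further in (35.2%). Among all RefSeq promoters that start with A, C precedes it in 66.6%. DRACH held 50 of the 421 start sites (11.9%), against 38.4% of all listed sites. Only 4 of these 50 are at the first base, where the motif's first bases lie outside the annotated exon.

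**Figure D1:**
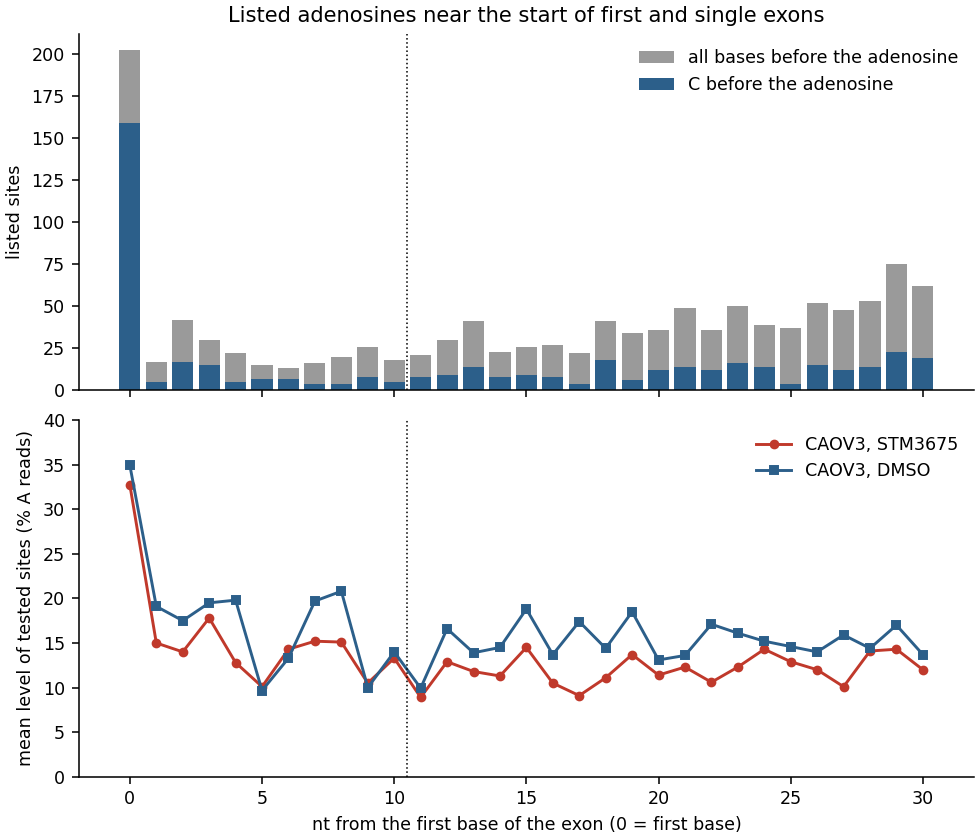
Upper panel, listed sites by distance in nt from the first base of first or single exons (0 is the first base; bars, with the part that has C before the adenosine in blue). Lower panel, mean level (% A reads) of the tested sites in CAOV3 with STM3675 (circles, red) and DMSO (squares, blue), each the mean of 2 libraries; the dotted line ends the 10-nt window. The first base stands out in both panels, with 202 sites and mean levels of 32.7% with STM3675 and 34.9% with DMSO, while the highest mean at any other position is 20.8%.

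The first-base sites were also listed by more libraries. Exactly 1 of 12 DMSO libraries passed the listing limits at 80 of 202 first-base sites (39.6%), at 177 of 219 sites further in (80.8%) and at 68.2% of all sites. All 6 lines contributed at 22 of the 202 first-base sites, at 2 of the 219 sites further in and at 30470 of all 407343 sites. Reads at start sites were fewer than elsewhere in the gene. At the first base the median ratio to the gene's median reads per site was 0.461 and 0.44 in the STM3675 libraries and 0.526 and 0.447 in the CAOV3 DMSO libraries, and 1 to 10 nt in it was 0.531 and 0.514 with STM3675 and 0.53 and 0.512 with DMSO.

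The comparison of STM3675 with DMSO asks which adenosines depend on the inhibited enzyme. Of the 421 start sites, 162 had 20 or more reads in each of the 4 CAOV3 libraries and were tested, 86 at the first base and 76 further in. Their mean level was 23.8% and 24.2% in the STM3675 libraries and 26.4% in each DMSO library, a difference of -2.41 points. The difference was -0.909 points over the 128 sites that a line other than CAOV3 also listed, and -1.5 outside DRACH. The quasi-binomial test with Benjamini-Hochberg adjustment over all 185923 tested sites called 4 start sites lower (2.47%) and 0 higher, and 3 of the 4 had been listed by CAOV3 DMSO libraries alone. The background was 35.2% lower over all tested sites, 73.9% over DRACH sites and 7.87% outside DRACH, and 0.309% higher over all tested sites (0.048% of DRACH sites and 0.493% outside DRACH). At an unadjusted p under 0.05 there were 12 lower (7.41%) and 0 higher, against 39% lower and 0.94% higher over all tested sites. The mean over all tested sites was 10.4% ± 0.0562 with STM3675 and 26.9% ± 0.416 with DMSO (SD, n = 2 each). STM3675 libraries lay both below both DMSO libraries at 38 start sites and both above at 23; over all tested sites 49.6% lay below and 8.24% above.

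At the first base no site was called. STM3675 libraries lay both below both DMSO libraries at 23 of the 86 tested sites and both above at 12, and 56 differences were below 0. Of all 108883 tested sites outside DRACH, 26669 lay below and 14076 above, and 67277 differences were below 0. The 86 tested sites averaged 32.7% ± 0.0184 with STM3675 and 34.9% ± 0.0535 with DMSO (SD, n = 2 each), and adjusted p ran from 0.055 to 1 in the quasi-binomial test. At an unadjusted p under 0.05 there were 2 lower (2.33%) and 0 higher, against 11.3% lower and 1.49% higher of all tested sites outside DRACH. With limma on the levels 1 site was called, in HNRNPA1, an RNA-binding protein. That site had 20% and 19% with STM3675 against 35% and 50% with DMSO (quasi-binomial adjusted p = 0.19). TUBA1B, an alpha-tubulin gene, was called under 3 alternatives; it had 19.6% and 21.3% with STM3675 against 24.7% and 41.8% with DMSO (adjusted p = 0.055). The 67 sites with C before the adenosine averaged 34.5% ± 0.284 with STM3675 and 35.7% ± 0.272 with DMSO, and the 19 with another base 26.6% ± 0.919 with STM3675 and 32.1% ± 0.717 with DMSO (SD, n = 2 each). Single sites leave a wide margin: the 95% interval of the difference excluded a fall to 0.5 of the DMSO level at 42 of the 86 sites.

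**Figure D2:**
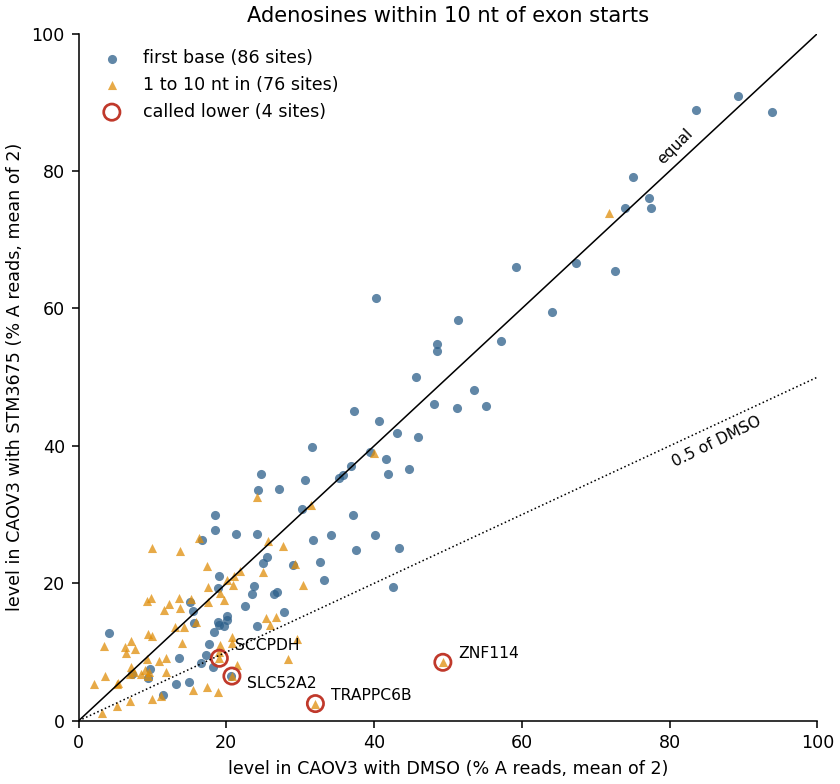
Level of each of the 162 tested start sites in CAOV3 with STM3675 (vertical axis) and with DMSO (horizontal axis), in % A reads, means of 2 libraries. Circles are 86 first-base sites and triangles 76 sites 1 to 10 nt in; the solid line marks equal levels, the dotted line 0.5 of the DMSO level, and rings the 4 called sites. First-base sites follow the solid line up to the highest levels, and the 4 called sites are all triangles.

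The first-base sites with the highest levels in CAOV3 were all without a call. TUBB4B, a beta-tubulin gene, had 88.2% and 93.6% with STM3675 against 87.7% and 90.7% with DMSO (difference 1.66 points, SE 3.45, adjusted p = 0.85, 108 to 186 reads). The libraries of the groups overlapped. LGALS1, which encodes galectin-1, had 90.7% and 86.4% with STM3675 against 93% and 94.6% with DMSO at position 37675636 of chromosome 22. Its libraries did not overlap, and the difference of -5.26 points had a 95% interval of -11.1 to 0.552. UCHL1, a ubiquitin hydrolase, had 70.6% and 60.4% with STM3675 against 70.7% and 74.5% with DMSO, without overlap (adjusted p = 0.26).

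RNA helicase DDX5 had 80.5% and 71.5% with STM3675 against 73% and 81.5% with DMSO, at position 64506289 of chromosome 17. HSP90AA1, the inducible HSP90 chaperone, had 78.5% and 79.8% with STM3675 against 80% and 70% with DMSO, at position 102087044 of chromosome 14. In both genes the groups overlapped. UBB, a polyubiquitin gene, had 58.1% and 61% with STM3675 against 64.6% and 63.5% with DMSO, without overlap. The difference was -4.48 points with an interval of -19.4 to 10.4. The histone gene H2BC12 had 65.9% and 66.1% with STM3675 against 57.9% and 60.6% with DMSO, without overlap but not called (adjusted p = 0.17).

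MT1G, a metallothionein, had 79.1% and 70.1% with STM3675 against 78.8% and 76.2% with DMSO, at position 56668065 of chromosome 16. The groups overlapped. The deepest of the named sites was that of MT1E, of the same family, at position 56625781 of chromosome 16, with 2592 to 3995 reads per library. It had 73.7% and 75.6% with STM3675 against 72.7% and 75.2% with DMSO, and the 95% interval of the difference, -1.31 to 2.64 points, was the narrowest among the sites named here. ID1, an inhibitor of helix-loop-helix transcription factors, had 1347 to 2343 reads, and 39.8% and 38.4% with STM3675 against 37.4% and 41.5% with DMSO (interval -3.27 to 2.58 points). Reads of metallothionein, tubulin, histone and ubiquitin genes can be shared with near-identical copies, so the assignment of these sites to 1 gene is uncertain.

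FTH1, the ferritin heavy chain, was the 1 gene among the 10 highest whose site is not the first base. Its adenosine, 3 nt in, at position 61967631 of chromosome 11, had 74.7% and 73.1% with STM3675 against 69.4% and 74.3% with DMSO (adjusted p = 0.76).

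**Figure D3:**
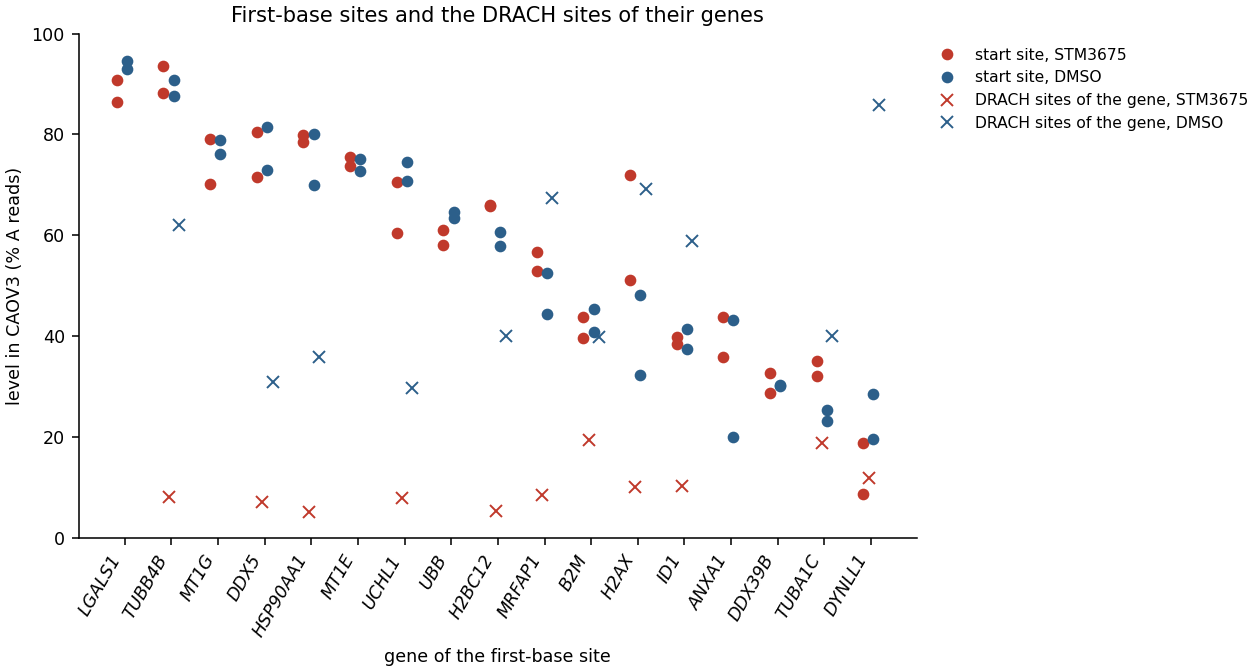
First-base sites named by rank in CAOV3 or in the 6 lines or by their difference from the gene, ordered by DMSO level: % A reads in each library with STM3675 (red circles) and DMSO (blue circles), beside the summed DRACH sites of the same gene (crosses, mean of 2 libraries, where the gene has any). In TUBB4B the site is near 90% with both, while the gene's DRACH sites are at 8.06% with STM3675 and 62.1% with DMSO.

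A high level in the other lines marks sites without use of CAOV3 values. This grouping was made after the values were seen. The level in the other 5 lines was a mean over only those of their libraries with 20 or more reads. A single library could thus decide it, in the backgrounds too. For ADIRF it was 1 OE21 library (32 reads, 56.2%), and for CST6 the COV644 libraries alone (29.7% and 26.8%). First-base sites outside DRACH with such a mean of 25% or more numbered 39 among those tested. They averaged 49.3% ± 0.97 with STM3675 and 47.8% ± 0.237 with DMSO (SD, n = 2 each), and 0 were called lower. All tested sites outside DRACH with that level in the other lines averaged 11.8% with STM3675 and 42.1% with DMSO, and 70.9% of those 5342 were called lower. At 50% or more in the other lines, 18 first-base sites averaged 63.1% ± 1.18 with STM3675 and 60.1% ± 1.17 with DMSO. Of these 0 were called lower and all 18 intervals excluded a fall to 0.5 of the DMSO level. The background of that class was 96.6%, or 1337 of 1384. Of the 24 first-base sites with 25% or more in the other lines and 50 reads in each CAOV3 library 0 were called lower, against a background of 89.5%. Depth was similar, with a median of 72.5 reads in the shallowest library at the 18 first-base sites and 51 in the whole class.

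Many first-base sites were still at 25% or more with STM3675. Among first-base sites with 20 reads, 52.8% and 57% reached 25% in the STM3675 libraries, against 62.9% and 59.3% in the CAOV3 DMSO libraries. Over all sites it was 4% and 4.63% with STM3675, against 41.1% and 42.2% with DMSO. The DMSO shares include sites listed because a CAOV3 DMSO library passed that same limit.

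The 4 start sites that were called lower all lie inside the exon. Those of ZNF114, SCCPDH and SLC52A2 are listed only because a CAOV3 DMSO library reached 25%, so the DMSO values they are tested against also selected them; that of TRAPPC6B was listed by SKOV3 as well. ZNF114, a zinc finger gene, had 7.75% and 9.27% with STM3675 against 47.8% and 50.8% with DMSO, 4 nt in, at position 48270085 of chromosome 19 in the DRACH 5-mer TGACT. The difference was -40.8 points (SE 5.16, adjusted p = 2.3e-14), and all 9 alternatives of the test called it. TRAPPC6B, a subunit of a vesicle-tethering complex, had 5% and 0% with STM3675 against 32% and 32.1% with DMSO (20 to 28 reads, adjusted p = 0.0053). This call was lost when any 1 library was left out, with adjusted p up to 0.18.

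SCCPDH, named for a saccharopine dehydrogenase-like protein, had 10.3% and 7.89% with STM3675 against 10.6% and 27.5% with DMSO (adjusted p = 0.032). SLC52A2, a riboflavin transporter, had 3.75% and 9.26% with STM3675 against 28.6% and 12.9% with DMSO, 1 nt in and outside DRACH (adjusted p = 0.044). In both, the 1 DMSO library above 25% is the one that listed the site, and most alternatives did not call them: 3 of 9 called SCCPDH and 1 of 8 SLC52A2. Over the alternatives adjusted p ran from 0.017 to 0.82 for SCCPDH and from 0.029 to 0.5 for SLC52A2. The count of start sites called lower was 1, in place of 4, without STM3675 replicate 1, without STM3675 replicate 2 and without DMSO replicate 2.

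Of 50 DRACH sites in the window 18 were tested. They averaged 13.4% ± 1.06 with STM3675 and 23.1% ± 3.37 with DMSO (SD, n = 2 each), and 3 were called lower (16.7%), those of ZNF114, TRAPPC6B and SCCPDH. The background was 73.9% of all tested DRACH sites and 70.5% of those in first and single exons beyond 10 nt. All tested DRACH sites averaged a higher level with DMSO, 45.4%. They were also deeper, with a median of 48 reads in the shallowest library against 27.5 at the 18 start sites. SNRPD3, a core protein of spliceosomal particles, had 21.6% and 19.4% with STM3675 against 25.8% and 14.5% with DMSO at its DRACH adenosine 9 nt in, which overlapped. PITX1, a homeobox factor, has 2 sites in the window; the one 3 nt in had 4.82% and 11.4% with STM3675 against 28.6% and 14.3% with DMSO, and MLLT11 had 6.17% and 0.971% with STM3675 against 17% and 5.41% with DMSO. Neither passed the test (adjusted p = 0.086 and 0.084). The edge of the window made no step: sites 8 to 10 nt in averaged 12.5% with STM3675 and 14.1% with DMSO, and those 11 to 13 nt in, outside the window, 11.3% with STM3675 and 13.6% with DMSO.

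A further test set each start site against the other tested DRACH sites of its own gene, whose reads were summed, in the same libraries. It could be made for 130 start sites. Of these 72 fell less than their gene (55.4%) and 0 fell more (2 with limma, 1 without DMSO replicate 1 and 1 without DMSO replicate 2), by the site-by-treatment interaction of the quasi-binomial model (Benjamini-Hochberg adjusted). Over all tested sites 10.1% fell more, 16841 sites, of which 16125 were DRACH sites. Outside DRACH, where 112 of the 130 start sites lie, only 716 of 97573 tested sites fell more. The background of sites that fell less was 38.7% over all tested sites and 52.5% outside DRACH, so the share over all start sites is near that of any site outside DRACH. At first-base sites with high levels in the other lines the share lay further from its background. With 25% or more in the other lines, 23 of 29 first-base sites outside DRACH fell less (79.3%; background of that class 23.8%), and with 50% or more 13 of 14 (92.9%; background 3.29%). With 25% and 50 reads it was 14 of 16 (87.5%; background 22.7%). Over all start sites the count was 42 of 131 without STM3675 replicate 1 and 46 of 144 without STM3675 replicate 2.

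H2AX, a histone variant gene with a single exon, had the largest difference. Its first-base site had 51.2% and 71.9% with STM3675 against 32.4% and 48.1% with DMSO (27 to 43 reads), while 12 DRACH sites of the gene summed to 10.2% with STM3675 and 69.1% with DMSO. The change at the site minus that of the gene was 80.2 points (adjusted p = 2.4e-08). The site's own increase did not pass the treatment test (adjusted p = 0.14). MRFAP1 had 56.6% and 52.9% with STM3675 against 44.4% and 52.5% with DMSO, and its 8 DRACH sites 8.45% with STM3675 and 67.4% with DMSO (adjusted p = 6.7e-11). At TUBB4B 9 DRACH sites were at 8.06% with STM3675 and 62.1% with DMSO, a difference in response of 55.7 points (adjusted p = 5.6e-07).

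ID1 had the smallest adjusted p of the 130 (1.5e-28): 2 DRACH sites of the gene were at 10.3% with STM3675 and 58.9% with DMSO. In DYNLL1, a dynein light chain gene, the first-base site had 18.8% and 8.7% with STM3675 against 28.6% and 19.6% with DMSO, and 3 DRACH sites 11.8% with STM3675 and 85.8% with DMSO. Sites further in were called as well. EIF4E, the cap-binding translation factor, had 15.4% and 24% with STM3675 against 21.9% and 20% with DMSO at an adenosine 8 nt in, and the 1 DRACH site of the gene 6.74% with STM3675 and 84.4% with DMSO. The site of H3C6 was itself low, 6.25% and 0% with STM3675 against 12.1% and 7.89% with DMSO, and lost the call without STM3675 replicate 1 (adjusted p = 0.92).

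The called sites with the smallest difference from their gene were those of UCHL1, B2M, PPT1, ASNS and DBI, between 14.8 and 22 points. B2M, the light chain of MHC class I, had 43.9% and 39.7% with STM3675 against 40.8% and 45.3% with DMSO at its first base, and its 2 DRACH sites 19.4% with STM3675 and 39.9% with DMSO. DBI, an acyl-CoA-binding protein, had 30.3% and 23.9% with STM3675 against 35.5% and 44.6% with DMSO; the groups did not overlap, and the treatment test did not call it (adjusted p = 0.16).

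**Figure D4:**
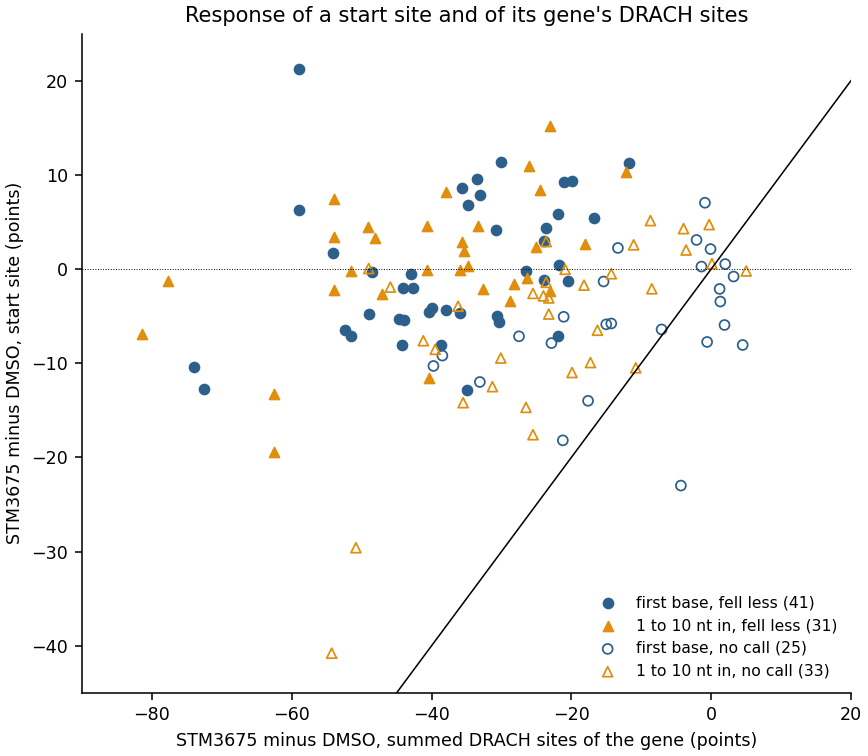
Difference in level between STM3675 and DMSO in CAOV3, in percentage points, at 130 start sites (vertical axis) and over the summed DRACH sites of the same gene (horizontal axis). Filled symbols are the 72 sites that fell less than their gene, open symbols those with no call, circles first-base sites and triangles sites 1 to 10 nt in; the solid line marks equal change. All 72 filled symbols lie above the line of equal change, H2AX highest with 21.2 points at the site.

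Over 7 gene groups 30 start sites were tested and 0 called. The share called lower was 2.47% of all start sites, 35.2% of all tested sites and 7.87% outside DRACH. So few sites cannot tell 0 from a share of 2.47%. Of 6 histone sites 5 were tested, with differences from -6.88 to 21.2 points; H3-3B, 1 nt in, had 37.8% and 40.2% with STM3675 against 39.7% and 40.2% with DMSO. All 5 metallothionein sites were first bases and tested (median difference -2.01 points), and MT2A had 54.8% and 55.6% with STM3675 against 56.2% and 58.2% with DMSO. Ribosomal proteins and translation factors had 10 start sites and 4 tested (median -0.879), and RPL27 had 4% and 8.57% with STM3675 against 6.9% and 12% with DMSO. Genes of the respiratory chain had 11 and 5 (median -0.635), led by COX6A1 with 51.3% and 41% with STM3675 against 52.9% and 43.4% with DMSO. Splicing and RNA-binding proteins had 12 and 5 (median -5.08, lowest -23 in HNRNPA1), heat shock proteins 6 and 3 (median -8.54), and tubulins and actins 4 and 3 (median 1.66). Over all 162 tested start sites the median difference was -1.84 points. Over all tested sites it was -7.49, but over all tested sites outside DRACH it was -1.87, near that of the start sites.

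A list of genes for cap formation, cap binding, decapping and adenosine methylation, with the termination factor PCF11, was also measured. All tested sites of each gene entered, inside and outside DRACH. Of its 22 genes, 18 were lower with STM3675 in reads summed over the gene and 0 higher, against 81.6% lower and 0.0626% higher of 11175 genes. PCIF1, the cap-adjacent methyltransferase, was at 12.1% ± 0.428 with STM3675 and 16.3% ± 2.93 with DMSO (SD, n = 2 each) and was not called (adjusted p = 0.15), and FTO, NCBP1 and EDC4 were not called either. DRACH held only 1 of the 8 tested sites in PCIF1, 0 of 1 in FTO, 2 of 10 in NCBP1 and 4 of 14 in EDC4. The levels of these genes thus rest mostly on sites outside DRACH. CMTR2, which methylates the ribose of the second transcribed nucleotide, was at 11.9% ± 0.484 with STM3675 and 58.5% ± 2.81 with DMSO (quasi-binomial adjusted p = 2.9e-14). The list has 3 start sites, 2 in EIF4E and 1 in NCBP1, a cap-binding protein, where CAOV3 had 2 to 10 reads. Expression of these genes cannot be read from these files.

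With DMSO, the mean levels of start sites lay between 27.9% and 32.9% in the 6 lines before background was subtracted. The 43 start sites with 20 reads in all 12 DMSO libraries averaged 30.6% ± 0.226 in A549, 31.8% ± 0.0899 in CAOV3, 27.9% ± 1.08 in COV644, 32.8% ± 1.5 in EFO21, 32.9% ± 1.24 in OE21 and 31.5% ± 0.946 in SKOV3 (SD, n = 2 each). Both COV644 libraries lay below those of the other 5 lines, whose means lay between 30.6% and 32.9%. When the library median of sites outside DRACH was subtracted, COV644 was no longer lowest: OE21 was at 28.6, COV644 at 23.6, CAOV3 at 20.8, EFO21 at 20.6, A549 at 20.1 and SKOV3 at 18.8 points. The order of lines differed over all sites covered in the 12 DMSO libraries. There, without subtraction, OE21 had the lowest mean (26%) and CAOV3 the highest (33.7%).

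Start sites differed between lines at a share near that of all sites. The quasi-binomial test with line as a factor called 19 of the 43 (44.2%; background 39.5% of all tested sites and 40% outside DRACH). At the first base 15 of 28 were called. The count fell to 11 without COV644 replicate 2, without OE21 replicate 1 and without OE21 replicate 2, and limma on the levels called 4.

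TUBB4B had the highest mean over the lines, 89.4%, but did not pass the test, at 84.7% ± 0.488 in A549 and up to 92.8% ± 1.07 in OE21 (adjusted p = 0.13). DDX5 was called and ranged between 72.2% ± 8.31 in COV644 and 90% ± 0.814 in EFO21 (adjusted p = 0.0025; 0.11 with limma). ID1 had 58.5% and 61% in EFO21, above all other libraries, 47.7% to 48.8% in A549 and OE21, and 37.4% to 43.1% in CAOV3, COV644 and SKOV3 (adjusted p = 1.1e-25). It was called under all 17 alternatives, with adjusted p up to 0.037.

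S100A6, a calcium-binding protein gene, was also called under all 17. It had 33.2% to 39.4% in CAOV3 and SKOV3, 24.2% and 25% in A549, and 16.2% to 21.8% in COV644, EFO21 and OE21 (adjusted p = 1.3e-20). DDX39B, a helicase of splicing and export, stood apart in 1 line: 4.23% and 3.53% in COV644 (71 and 85 reads) against 23.8% to 40.4% in the other 10 libraries (adjusted p = 6.9e-08; 0.053 with limma). In CAOV3 the same site had 28.8% and 32.7% with STM3675 against 30.3% and 30.1% with DMSO.

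NASP, a histone chaperone, has its site 4 nt in and was at 45.9% ± 2.07 in OE21 and 24.7% ± 0.0432 in A549 (adjusted p = 0.0065). The call was lost with limma and when OE21 replicate 1 or OE21 replicate 2 was left out, with adjusted p up to 0.094. TUBA1C, ANXA1 and BEX3 completed the list of 8 with the largest ranges, and were called under 12, 5 and 11 of 17 alternatives. The gene MT1X was not tested because COV644 had 8 and 13 reads there; its first-base site had 53.7% and 56.7% in CAOV3 against 2.56% to 20% in A549, EFO21, OE21 and SKOV3, a contrast chosen after its values were seen. B2M, at 32.9% to 45.4% over the line means, was not called (adjusted p = 0.13).

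**Figure D5:**
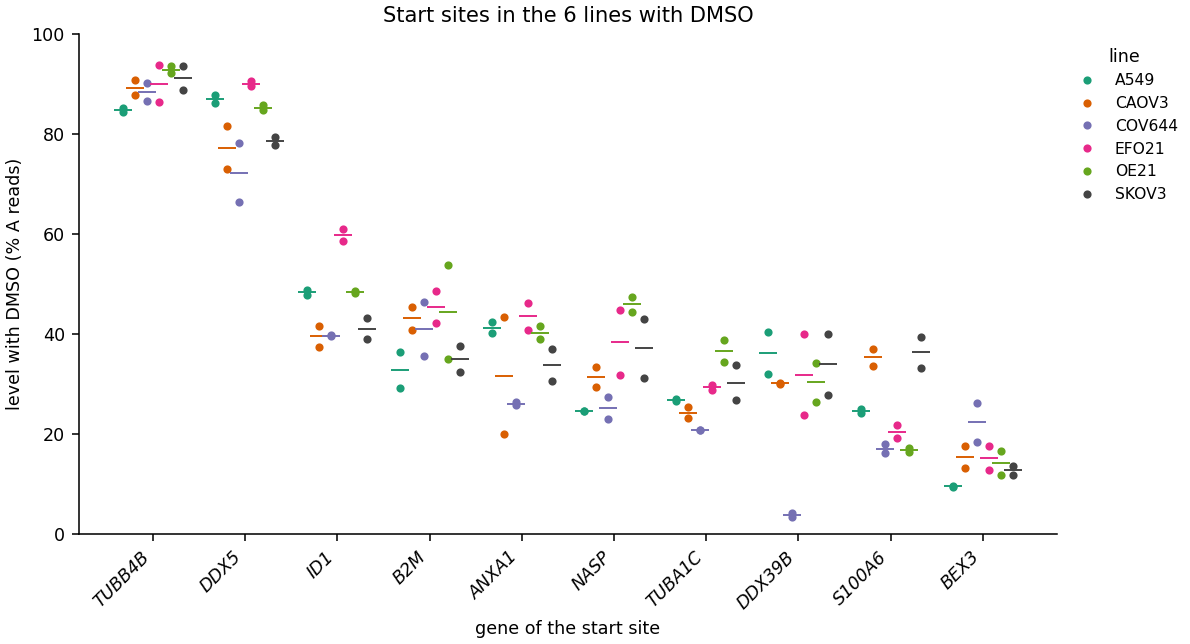
Start sites with 50 or more reads in each of the 12 DMSO libraries that have the highest mean or the largest called range, in the order of their mean: % A reads in both libraries (dots) and their mean (dash) for each line. DDX39B is near 4% in COV644 alone, and TUBB4B lies between 84.4% and 93.7% in all 12 libraries.

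The promoters of first-base sites were searched for common motifs. Of the 202, 121 fall inside a RefSeq promoter matched by gene name, and 117 of these are the RefSeq start itself. The letters TATAAA (either strand, 40 to 16 bases upstream) were in 15.4% of those promoters, against 3.43% of all 15605 RefSeq promoters that start with A. CCAAT (either strand, 150 to 31 bases upstream) was in 35% against 21.4%, and GGGCGG (either strand, 100 to 1 bases upstream) in 51.3% against 30.5%. These are matches of letters, and genes with enough reads at their start are a selected group. Among tested first-base sites outside DRACH, those followed by T (18 sites) had a median of 40.5% with STM3675 and 41.3% with DMSO, and those followed by G (41 sites) 23.8% with STM3675 and 26.5% with DMSO. Sites with C before the adenosine (67 sites) were at medians of 33.6% with STM3675 and 31.6% with DMSO.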

How the data were processed

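Per the labels' protocols, polyadenylated RNA was fragmented, deaminated by GLORI and made into small RNA libraries. The submitters' processing notes name cutadapt, STAR and the build GRCh38, with no versions; how sites were called is not stated there. The authors deposited, per site and library, the count of A and G reads and the fraction of them that are A; their product was whole within 5.5e-12, so A counts were recovered. Whether duplicates were merged is not given, so errors cover counting and the spread of libraries only. All columns of per-sample values were used.

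Sites with 20 or more reads in every library compared were fitted by a quasi-binomial logistic model (Python 3.11.15, numpy 2.4.6, scipy 1.17.1, pandas 2.3.3). The dispersion was moderated with limma 3.58.1 in R 4.3.3 and floored at 1. Moderation gave 1 value for all sites in the treatment test (1.67) and in the line test (1.71), and 1.74 to 6.7 in the interaction test. At start sites alone the dispersion by line ran from 1.5 in OE21 to 3.01 in SKOV3, which the common value of the line test does not follow. P-values were adjusted by Benjamini-Hochberg over all tested sites, threshold 0.05; intervals are 95% and use the common dispersion. The fits were also run on simulated reads drawn with 1 dispersion (1.67) for all sites. That run cannot check whether a common dispersion holds in the data. Replicate numbers did not pair the libraries (correlation of deviations -0.00253 in CAOV3). Replicates differed by more than counting noise. An exact permutation test of 2 against 2 libraries cannot go below p = 0.333, so means over sites carry no p.

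Sites were named by rule, 1 per gene: the 10 highest CAOV3 DMSO levels with 50 reads in each CAOV3 library; all called sites; the 8 highest means and 8 largest called ranges over the lines with 50 reads; the 5 DRACH sites with most CAOV3 reads; the 5 largest and 5 smallest called differences from the gene's DRACH sites; and up to 3 per gene list. Members and lists were chosen with earlier results of these data known. Sequences are RefSeq's (GRCh38.p14): 329 start sites matched a promoter by gene name and 262 lie inside it, with the deposited 5-mer equal at all 262. Alternatives were other read minimums, limma on levels, another dispersion, windows of 5 and 2 nt, each library left out and a replicate block. Figures used matplotlib 3.10.9. Sites outside that table are named only.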

Additional observations from a re-analysis of the deposited data

How the results depend on the processing

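The absence of higher calls in the treatment test held under every alternative run. The mean difference stayed negative under the alternatives listed here, but its sign depended on how sites were chosen. It was 0.272 points over the 53 tested start sites with a mean of 25% or more in the other lines, a grouping made after the values were seen. The count of start sites called lower, 4, was 6 with the dispersion of start sites alone, 5 with a minimum of 10 reads, 2 with a replicate block, 2 in a window of 2 nt, and 1 outside DRACH or among sites listed by a line other than CAOV3; it was 1 to 3 with 1 library left out. The mean difference of -2.41 points was -2.73 with a minimum of 50 reads, -1.99 with 10 reads, -1.5 outside DRACH, -0.909 among sites listed by another line, and -2.65 to -2.18 with 1 library left out. Of 130 start sites 72 fell less than their gene; 23 of 35 did with 50 reads, 72 of 130 with a replicate block, 91 of 130 with limma (2 fell more), and 42 to 83 with 1 library left out. Of 43 start sites 19 differed among lines: 8 of 11 with 50 reads, 21 of 91 with 10 reads, 4 with limma, 11 with the dispersion of start sites alone, 20 with a replicate block, and 11 to 20 with 1 library left out. Same-numbered libraries did not deviate together (correlations -0.0301 to 0.0242 over the lines), so the block stands for a number only. Line means with the background subtracted, with 50 reads and in a window of 2 nt were 20.1, 39.6 and 34.2 for A549, 20.8, 40.1 and 35.5 for CAOV3, 23.6, 34.2 and 31.9 for COV644, 20.6, 44.1 and 35.4 for EFO21, 28.6, 44.2 and 37.4 for OE21, and 18.8, 41 and 34.6 for SKOV3. With 1 library left out they were 30.4 to 30.7, 31.7 to 31.9, 26.8 to 28.6, 33.4 to 33.9, 31.3 to 33.7 and 30.8 to 31.1 in the same order of lines. Higher minimums and narrower windows keep fewer sites; the cause of the other shifts was not tested. Depth limits single sites: the median half-width of the interval at the first base was 13.8 points.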
